A study of Homo sapiens with 8 samples.

Results

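The PML nuclear body components described here are 5 genes, PML, SP100, SP110, SP140L and DAXX, of the 36779 genes listed in the deposited count tables. They were chosen by name as protein components of PML nuclear bodies. The rule uses no measured value, but the set was proposed with earlier results of these data known. All 5 passed the filter on low counts, which left 17877 genes. The study compared total RNA of PC3 and DU145, human prostate cancer cell lines, after transfection with a plasmid meant to overexpress a circular RNA (circRNA) or with a negative control plasmid. The 6 groups were PC3 with circ0003553 (1 library), PC3 with circ0004592 (1 library), PC3 with control plasmid (2 libraries), DU145 with circ0003553 (1 library), DU145 with circ0004592 (1 library) and DU145 with control plasmid (2 libraries). In each line, 1 control library belongs to the circ0003553 arm and 1 to the circ0004592 arm, and the titles call the arms by the gene names RCAN3 and STK3. All 8 libraries came from transfected cells, and no untransfected library was analysed here. The labels give no replicate number, no time after transfection and no statement that the control libraries of a line came from separate cultures, so the p-values measure only the spread between these samples, which may be technical.

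PML nuclear bodies are protein assemblies in the nucleus that form around PML, a tripartite motif protein which carries SUMO, a small ubiquitin-like modifier, and recruits partners that bind SUMO or carry it. SP100 is a permanent resident of the bodies, and SP110, SP140 and SP140L belong to its family of speckled proteins with chromatin-reading domains. DAXX is a histone chaperone that works with ATRX and is held in the bodies through SUMO. The bodies are known for restricting viral genomes and for storing histone variants, and several of their genes are textbook interferon-stimulated genes.

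Total counts per library ran between 33444940 and 49926342, and 6 counts, the most that finding no read pair allows, amounted to 0.118 to 0.184 CPM. CPM are counts per library size, where sizes were adjusted by TMM. Log2 CPM correlated across genes at 0.997 between the PC3 controls and 0.998 between the DU145 controls, where genes are not independent replicates. RCAN3 had 44.0 CPM with circ0003553 in PC3, against 33.2 and 29.5 CPM in the PC3 controls (log2 change 0.49, edgeR adjusted p = 0.000313), and 37.1 CPM with circ0003553 in DU145, against 20.9 and 18.3 CPM in the DU145 controls (0.92, 9.64e-07). STK3 had 19.3 CPM with circ0004592 in PC3, against 7.70 and 9.12 CPM in the PC3 controls (1.19, 2.74e-08). In DU145 it had 34.1 CPM with circ0004592, against 28.8 and 26.2 CPM in the DU145 controls (0.31, 0.0551). Counts per gene do not separate circular from linear molecules, so these values check the inserts only in part. All 5 epithelial keratin and adhesion markers were detected in every library. Their sums were 1040 and 1016 CPM in PC3 with circ0003553 and circ0004592, against 1317 and 1269 CPM in the PC3 controls. In DU145 they were 3441 and 4531 CPM, against 3531 and 3363 CPM. These sums join opposite moves. In PC3, KRT8 alone stood above both controls with each circRNA (435 and 433 CPM, against 364 and 351 CPM). The others stood below, such as KRT19 (436 and 423 CPM, against 756 and 731 CPM). In DU145, CDH1 was lower with each circRNA (43.3 and 41.3 CPM, against 62.5 and 64.8 CPM). With circ0004592 the other markers stood above both DU145 controls. Of the 6 prostate markers 5 were listed, led by HOXB13 in PC3 (sums of 221 and 216 CPM with a circRNA, against 283 and 303 CPM), while KLK3 was at 0 in 7 of the 8 libraries. Of 7 listed leukocyte markers, LCP1 alone made up nearly the whole sum, which was 236 and 216 CPM in PC3 with a circRNA, against 243 and 226 CPM in the PC3 controls. In DU145 the sum was 14.6 and 12.6 CPM with a circRNA, against 9.02 and 8.02 CPM in the controls, and CD52 and PTPRC were at 0 in both controls. Of the 4 fibroblast markers, 3 were listed and COL1A1 carried the sum, which was 21.8 and 23.5 CPM in PC3 with a circRNA, against 27.8 and 27.9 CPM in the controls, and at most 2.96 CPM in DU145. The part of these marker shifts in the results was not tested.

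In PC3, 4 of the 5 genes rose several-fold with each circRNA, and in DU145 none of the 5 passed the test with either. SP110 moved most, followed by SP100, PML and SP140L, and DAXX moved little. By edgeR's quasi-likelihood test with Benjamini-Hochberg adjustment over all tested genes and a threshold of 0.05, 5 of 5 genes were called higher with circ0003553 in PC3, where 14.3% of all tested genes were called higher. With circ0004592 in PC3 it was 4 of 5, where 12.3% were called higher. The median log2 change of the 5 genes was 2.36 with circ0003553 and 2.31 with circ0004592, beside -0.03 for all tested genes in both comparisons. Within a line both circRNA comparisons use the same 2 controls, so they are not independent of each other. Each circRNA stands as 1 library per line, which the fit takes to vary like the controls. In bulk RNA, more RNA per cell cannot be told apart from more cells that express a gene.

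**Figure D1:**
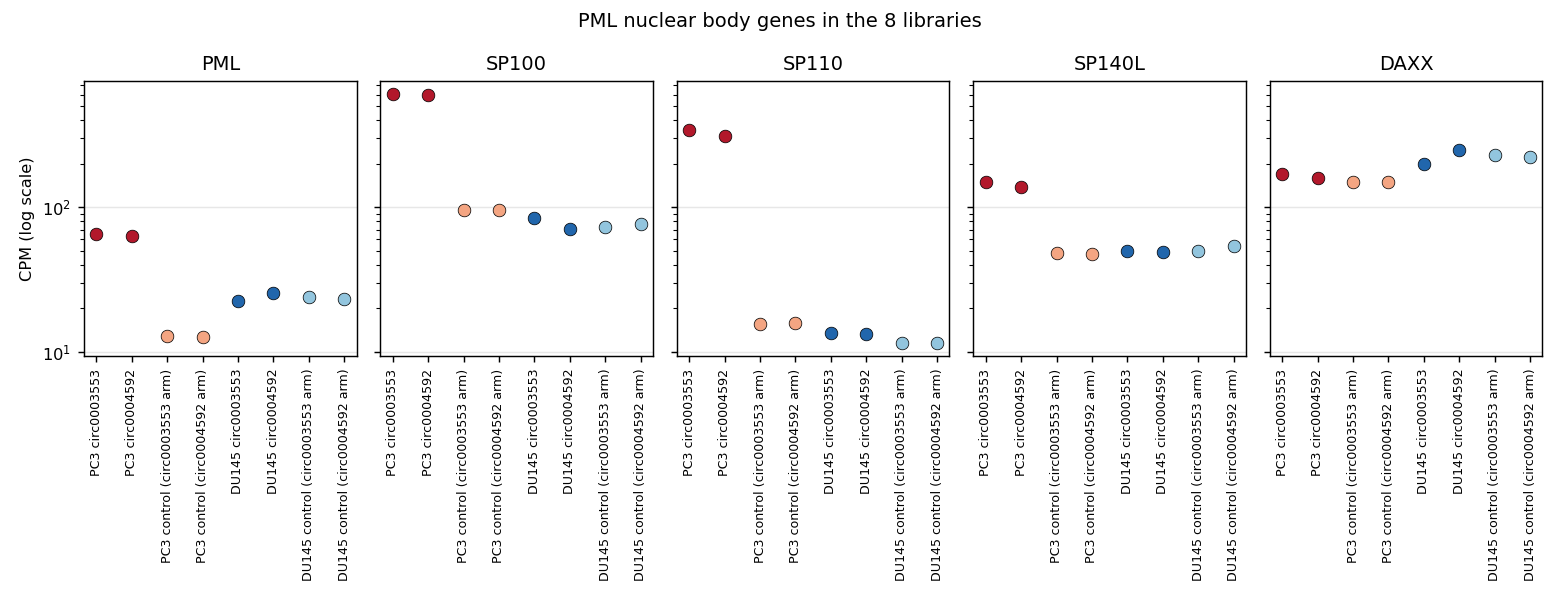
Levels of PML, SP100, SP110, SP140L and DAXX in CPM on a log axis, 1 panel per gene and 1 point per library. In PC3 the circRNA libraries stand above both controls for every gene, by far for SP110 (340 and 312 CPM against 15.6 and 15.8 CPM). For DAXX the step is small, and its change with circ0004592 did not pass. The share of all tested genes with this order of libraries was not counted. The DU145 libraries lie close together.

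PML, the scaffold of the bodies (chromosome 15, 73994673 to 74047812 on the plus strand of hg38, 9 merged exon blocks), had 65.6 CPM with circ0003553 and 63.1 CPM with circ0004592 in PC3, against 12.9 and 12.6 CPM in the PC3 controls. Both circRNA libraries lay above both controls, without overlap. The log2 change was 2.36 ± 0.09 with circ0003553 (SE, edgeR adjusted p = 5.76e-17) and 2.31 ± 0.09 with circ0004592 (1.00e-16). In DU145, PML had 22.6 CPM with circ0003553 and 25.6 CPM with circ0004592, against 23.9 and 23.2 CPM in the DU145 controls. The circ0003553 library was below both controls and the circ0004592 library above both, and neither change passed (log2 -0.06 ± 0.09, adjusted p = 0.714, and 0.12 ± 0.09, 0.467, by edgeR). In controls, PML was lower in PC3 than in DU145, by a log2 difference of -0.89 ± 0.08 (edgeR adjusted p = 2.06e-10), and with a circRNA the PC3 level passed that of all 4 DU145 libraries. Against the control of its own arm, PML was 5.09-fold higher with circ0003553 (95% Clopper-Pearson interval 4.41 to 5.89) and 5.02-fold higher with circ0004592 (4.34 to 5.82) in PC3. These intervals cover counting error of read pairs only. The neighbouring gene STOML1 begins 50 bases from PML on the other strand, and it was looked up after its values were seen. It passed the test in PC3 with neither circRNA (log2 0.28 and 0.29, edgeR adjusted p = 0.383 and 0.381).

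SP100, SP110 and SP140L lie with SP140 in a cluster of 4 genes on chromosome 2 that spans 376798 bases. RefSeq's table of promoters (GRCh38.p14, 250 bases before to 50 after a gene's start) had entries for 3 of the 5 members, SP110 with 2 starts, SP100 with 2 and SP140L with 1, and 1 entry for SP140. Of these, 4 are shown because they belong to the genes that moved together in PC3 and carry the same short word. Capitals mark AAGTGAAA on either strand, the longest word that 5 of the 6 entries share, the exception being the second start of SP100. The windows are chr2:230225587-230225886 (minus strand, SP110 upper start), chr2:230219935-230220234 (minus strand, SP110 inner start), chr2:230326943-230327242 (plus strand, SP140L) and chr2:230415951-230416250 (plus strand, SP100 first start).
SP110 upper start: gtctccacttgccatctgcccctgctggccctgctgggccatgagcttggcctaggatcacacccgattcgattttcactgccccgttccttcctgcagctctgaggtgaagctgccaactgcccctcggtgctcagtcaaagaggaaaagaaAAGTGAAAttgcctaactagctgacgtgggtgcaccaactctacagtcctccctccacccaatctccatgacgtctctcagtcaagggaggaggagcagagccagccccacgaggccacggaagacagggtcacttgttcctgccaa
SP110 inner start: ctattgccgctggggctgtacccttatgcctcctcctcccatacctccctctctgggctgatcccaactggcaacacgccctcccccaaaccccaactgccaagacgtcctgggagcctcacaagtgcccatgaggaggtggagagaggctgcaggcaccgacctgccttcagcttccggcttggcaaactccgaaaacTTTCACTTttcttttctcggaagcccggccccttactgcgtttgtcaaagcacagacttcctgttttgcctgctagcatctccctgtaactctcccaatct
SP140L: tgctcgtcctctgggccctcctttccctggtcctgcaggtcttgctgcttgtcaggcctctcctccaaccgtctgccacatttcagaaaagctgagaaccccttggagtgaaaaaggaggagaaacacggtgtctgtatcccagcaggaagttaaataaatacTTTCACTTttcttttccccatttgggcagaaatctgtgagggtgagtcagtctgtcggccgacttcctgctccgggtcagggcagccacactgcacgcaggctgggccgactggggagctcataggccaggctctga
SP100 first start: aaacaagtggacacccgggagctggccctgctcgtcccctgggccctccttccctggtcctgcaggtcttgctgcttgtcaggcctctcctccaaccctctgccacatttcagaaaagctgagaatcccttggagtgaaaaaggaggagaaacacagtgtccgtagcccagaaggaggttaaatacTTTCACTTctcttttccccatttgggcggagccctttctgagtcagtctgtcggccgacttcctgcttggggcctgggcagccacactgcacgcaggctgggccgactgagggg
AAGTGAAA, searched on both strands, stood in 569 of all 35116 entries (1.62%). The longest word shared by the entries of SP110, SP140L and SP140 had 16 letters, GAAAAGAAAAGTGAAA, which contains AAGTGAAA, and it stood in 4 of the 35116 entries (0.0114%), both of SP110 and those of SP140L and SP140. These words were taken from the entries themselves, so their presence there is no test. Both words begin 51 bases before the inner SP110 start and 87 bases before the SP140L start, and AAGTGAAA begins 64 bases before the first SP100 start and 97 bases before the upper SP110 start. The letters GAAANNGAA, found in 8.11% of all entries, were in none of the 6. AANNGAAA, which overlaps AAGTGAAA wherever that occurs, was in 22.8% of all entries and in the same 5. TTCNNNGAA, found in 7.66%, was in the inner start of SP110 alone among the 6. The SP100 first start and the SP140L entry were alike over most of their length, with 251 of 272 aligned bases identical (92.3%) and a longest shared run of 48 bases. The upper SP110 window and the SP140 window share 199 bases on opposite strands, so the word in them is 1 place in the genome. A match is a description of these letters, and counts per gene do not show which start was used.

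SP100 (230415942 to 230544090 on the plus strand, 32 merged exon blocks), the founding member of the family, had 609 CPM with circ0003553 and 596 CPM with circ0004592 in PC3, against 95.2 and 95.3 CPM in the PC3 controls. The circRNA libraries were far above both controls. Log2 changes were 2.68 ± 0.06 (SE, edgeR adjusted p = 3.94e-22) and 2.65 ± 0.06 (5.22e-22). In DU145, SP100 had 83.5 CPM with circ0003553 and 71.1 CPM with circ0004592, against 73.1 and 75.9 CPM in the controls. The circ0003553 library was above both controls and the circ0004592 library below both, with log2 changes of 0.17 ± 0.06 (edgeR adjusted p = 0.0770) and -0.07 ± 0.06 (0.569). The change of 0.17 passed narrowly when either PC3 control library was left out (edgeR adjusted p = 0.0485 and 0.0481). Among controls, SP100 was higher in PC3 than in DU145 by 0.36 ± 0.05 on the log2 scale (edgeR adjusted p = 5.58e-07).

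SP110 (230167293 to 230225729 on the minus strand, 25 merged exon blocks), a family member best known from leukocytes, had 340 CPM with circ0003553 and 312 CPM with circ0004592 in PC3, against 15.6 and 15.8 CPM in the PC3 controls. No other gene of the 5 was separated as widely. Log2 changes were 4.44 ± 0.07 (SE, edgeR adjusted p = 4.50e-25) and 4.32 ± 0.07 (8.43e-25), which ranked it 79 and 83 of 17877 tested genes by log2 change. In DU145 it had 13.4 and 13.3 CPM with circ0003553 and circ0004592, against 11.4 and 11.5 CPM in the controls. Both circRNA libraries stood above both controls by a small margin, and neither change passed (0.23 ± 0.09, adjusted p = 0.0923, and 0.22 ± 0.09, 0.152, by edgeR). In controls SP110 was higher in PC3 than in DU145 by 0.45 ± 0.07 on the log2 scale (edgeR adjusted p = 5.13e-06). All 1668 exon bases of AC009950.1 lie within SP110 exons on the same strand, and its counts were between 94.2% and 97.7% of those of SP110 in every library. The same reads were thus entered for both genes, and the SP110 values cannot be separated from it.

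SP140L (230327184 to 230403732 on the plus strand, 18 merged exon blocks), a family member close in sequence to SP140, had 149 CPM with circ0003553 and 137 CPM with circ0004592 in PC3, against 48.1 and 47.4 CPM in the PC3 controls. Its circRNA libraries again lay above both controls, by a smaller step than in SP100 and SP110. Log2 changes were 1.64 ± 0.07 (SE, edgeR adjusted p = 6.30e-16) and 1.52 ± 0.07 (3.71e-15). In DU145 it had 49.3 CPM with each circRNA, against 49.7 and 53.9 CPM in the controls. Both circRNA libraries were just below both controls, and the changes did not pass (-0.07 ± 0.07 for each, edgeR adjusted p = 0.605 and 0.615). PC3 and DU145 controls differed by -0.11 ± 0.06, which did not pass either (edgeR adjusted p = 0.0760). It passed without the DU145 control of the circ0003553 arm (-0.18, adjusted p = 0.0259), without the DU145 circ0003553 library (-0.13, 0.0454) and with a filter at 5 CPM (-0.14, 0.0342). Without the DU145 control of the circ0004592 arm the difference was -0.06. SP100, SP140 and SP140L are near copies in places, and how reads that match several genes were counted is not given in the sources used here.

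Other genes in and beside the cluster were read for comparison. SP140, the fourth family member, had 3.54 and 3.15 CPM with circ0003553 and circ0004592 in PC3, against 1.32 and 1.73 CPM in the PC3 controls, and rose by 1.21 and 1.05 on the log2 scale (edgeR adjusted p = 0.00517 and 0.0177). In DU145 it had 1.61 and 1.35 CPM with a circRNA, against 0.726 and 1.21 CPM in the controls, and did not pass (adjusted p = 0.175 and 0.458). SP140 shares 170 exon bases with SP110 on the opposite strand. AC009950.2, which runs against SP110 and shares 1262 exon bases with its end, had 12.6 CPM with each circRNA in PC3, against 0.590 and 0.669 CPM in the controls (log2 4.31 with each, edgeR adjusted p = 1.11e-12 and 1.13e-12). The pseudogene HMGB1P3, with 88.3% of its exon bases in SP100 exons, had 10.1 and 10.8 CPM, against 2.11 and 2.06 CPM (log2 2.27 and 2.37). The strand setting of the counting is not given, so reads of overlapping genes cannot be told apart. RN7SL834P, in an SP100 intron, had 1.15 and 1.08 CPM in PC3 with a circRNA, against 0.253 and 0.223 CPM, and AC010149.4, antisense to SP100, stayed at or below 7 counts in every library. On the SP110 side, SLC16A14, a transporter gene, fell in PC3 (log2 -0.96 and -1.01), FBXO36, an F-box protein gene, did not pass, and TRIP12, a ubiquitin ligase gene, rose by 0.59 and 0.42. On the SP100 side, the pseudogenes TPM3P8 and BANF1P3 did not pass, and CAB39, a scaffold of the LKB1 kinase, rose by 0.68 and 0.43. None of these 6 neighbours passed in DU145 with either circRNA.

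**Figure D2:**
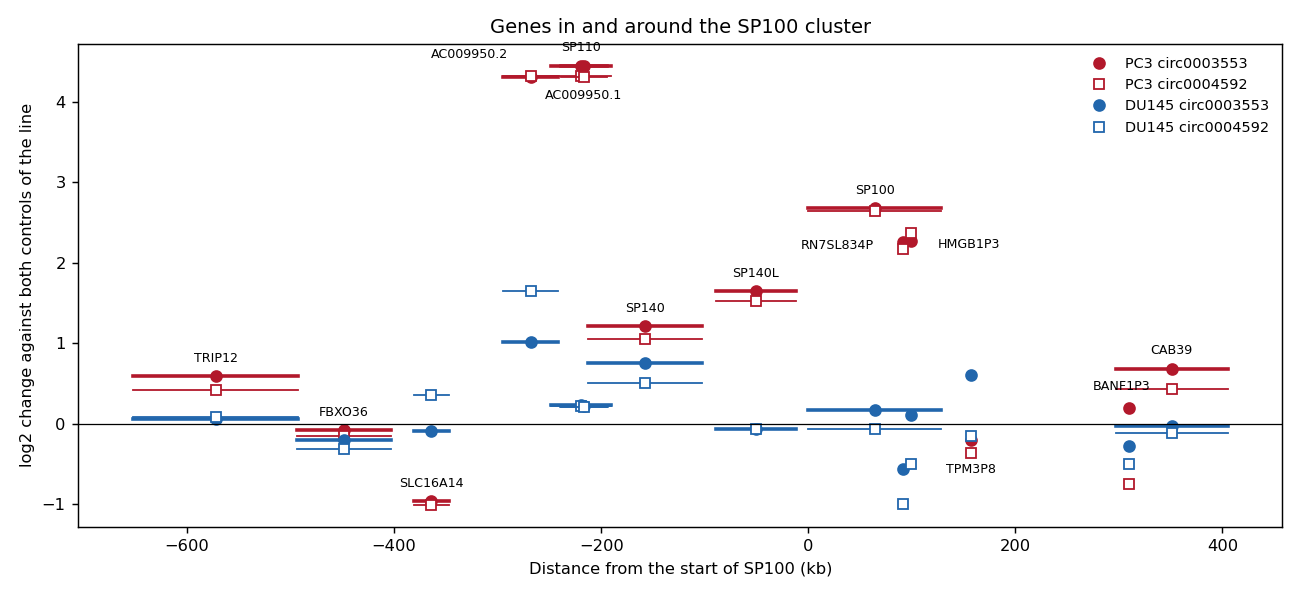
Log2 change against both controls of the line for genes in and around the SP cluster, placed by distance from the start of SP100 in kb (bars span each gene; filled circles are circ0003553, open squares circ0004592). In PC3 (red) SP110, SP100 and SP140L stand at 4.44, 2.68 and 1.64 with circ0003553, above the neighbours outside the cluster, the highest of which is CAB39 at 0.68. In DU145 (blue) the changes at very low counts, such as those of AC009950.2, are not past the test.

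DAXX, the histone chaperone (chromosome 6, 33318558 to 33329269 on the minus strand, 11 merged exon blocks), had 170 CPM with circ0003553 and 159 CPM with circ0004592 in PC3, against 149 and 149 CPM in the PC3 controls. Both circRNA libraries were above both controls, by a far smaller step than in the other genes. The change passed with circ0003553 (log2 0.19 ± 0.06 SE, edgeR adjusted p = 0.0147) and not with circ0004592 (0.10 ± 0.06, 0.252). The first call was lost with no filter on low counts (adjusted p = 0.0965), with limma on RPKM (0.0707) and with both circRNAs of a line taken as 1 group (0.323). In DU145, DAXX had 200 CPM with circ0003553 and 249 CPM with circ0004592, against 228 and 223 CPM in the controls. The circ0003553 library was the lowest and the circ0004592 library the highest of the 4, with log2 changes of -0.17 ± 0.06 (edgeR adjusted p = 0.0508) and 0.15 ± 0.06 (0.107). The change with circ0003553 passed when the DU145 circ0004592 library or any 1 of the 4 PC3 libraries was left out (adjusted p between 0.0264 and 0.0493). In controls DAXX was lower in PC3 than in DU145 by a log2 difference of -0.60 ± 0.05 (edgeR adjusted p = 2.48e-11). The nearby TAPBP, looked up after its values were seen, rose in PC3 by 0.73 and 0.83, while ZBTB22, which lies between them, did not pass.

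In DU145, 0 of 5 genes passed with circ0003553, where 10.9% of all tested genes were called in either direction, and 0 of 5 with circ0004592, where 10.4% were called. At an unadjusted p under 0.05 there were 3 of 5 and 2 of 5 by edgeR, beside 4413 and 4309 of all 17877 tested genes. DESeq2 called 0 of 5 in both comparisons, where it called 820 and 835 of all genes. With limma on RPKM, 0 of all genes were called in both, so its 0 of 5 says nothing about the members. With DESeq2 size factors in edgeR, DAXX was called lower with circ0003553 (log2 -0.18, adjusted p = 0.0377). Against the control of the own arm, the 10 DU145 ratios ran from 0.877 for DAXX with circ0003553 to 1.18 for SP110 with circ0003553. A ratio of 2 or more was reached by 8 of the 20 ratios over both lines, all of them in PC3, where 4.03% and 4.09% of tested genes reached it with circ0003553 and circ0004592. In DU145 these shares were 1.06% and 1.27%.

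**Figure D3:**
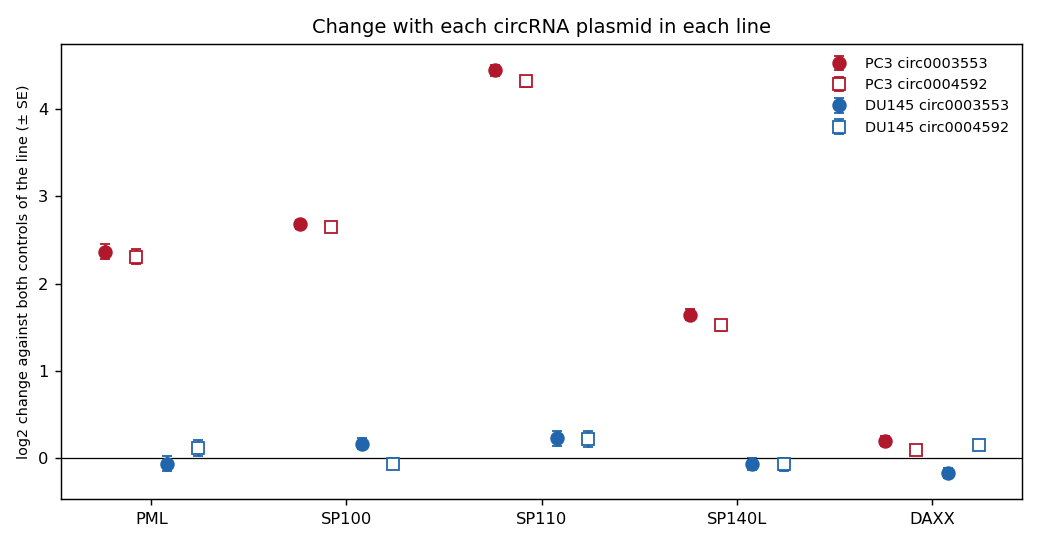
Log2 change of each gene with each circRNA against both controls of its line, with SE bars. The PC3 points (red) stand between 1.52 and 4.44 for PML, SP100, SP110 and SP140L, all DU145 points (blue) lie between -0.17 and 0.23, and DAXX lies near 0 in both lines.

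The difference between the lines was tested itself, as the change in PC3 minus the change in DU145. With circ0003553, 5 of 5 genes were called higher in PC3, where 12.1% of tested genes were, and with circ0004592 it was 4 of 5, where 9.79% were. For SP110 the difference was 4.21 ± 0.11 with circ0003553 (log2, SE, edgeR adjusted p = 2.97e-19) and 4.10 ± 0.12 with circ0004592 (1.09e-18). SP100 differed by 2.51 ± 0.08 and 2.71 ± 0.09, PML by 2.43 ± 0.12 and 2.19 ± 0.13, and SP140L by 1.71 ± 0.10 and 1.59 ± 0.10, with adjusted p of 1.66e-12 or less for circ0003553 and 1.26e-11 or less for circ0004592 by edgeR. DAXX differed with circ0003553 (0.37 ± 0.08, adjusted p = 0.00175), where the DU145 change was downward and the PC3 change upward, and not with circ0004592 (-0.05 ± 0.08, 0.737). The DAXX difference with circ0003553 was not called with both circRNAs of a line taken as 1 group (adjusted p = 0.542).

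Between the circRNAs in PC3, 0 of 5 genes differed, where 0.112% of tested genes did. By edgeR, 0 of 5 also had an unadjusted p under 0.05, beside 1496 of all 17877 tested genes. DESeq2 called 0 of 5, where it called 42 of all genes. With limma, 0 of all genes were called, so its 0 of 5 says nothing about the members. The circ0003553 minus circ0004592 differences were 0.12 ± 0.07 for SP110, 0.12 ± 0.08 for SP140L, 0.10 ± 0.07 for DAXX, 0.06 ± 0.09 for PML and 0.03 ± 0.06 for SP100 on the log2 scale. In DU145, 2 of 5 differed, where 13.9% of tested genes did. SP100 was higher with circ0003553 than with circ0004592 (0.23 ± 0.07, edgeR adjusted p = 0.0297) and DAXX lower (-0.32 ± 0.07, 0.00201). The SP100 call was lost with DESeq2 (adjusted p = 0.0599) and with no filter (0.0586). Neither gene was called by limma on RPKM (0.108 for SP100 and 0.107 for DAXX), which called 0 of all tested genes here. Over both lines, in a fit that sets each circRNA library against the control of its arm, 0 of 5 passed for either circRNA and 0% of all genes did. There edgeR gave 519 and 542 genes, none of them among the 5, at an unadjusted p under 0.05. DESeq2 called 11 and 13 genes in this fit and none of the 5. The residual spread of this fit is how far the change with each circRNA differed between PC3 and DU145. A rise in PC3 alone thus gets a large SE, as for SP110 with circ0003553 (2.36 ± 1.46 on the log2 scale). The 0 of 5 is no statement on PC3 alone. Between the controls, 4 of 5 genes differed, PC3 against DU145, where 82.6% of tested genes did.

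Levels of different genes can be set side by side only per length, as RPKM, which divides counts by the summed exon length of all listed transcripts. RPKM can understate genes with a large summed exon length, such as PML (12657 bases) and SP100 (12618 bases). In the PC3 circRNA libraries, SP110 (48.8 and 45.3 RPKM with circ0003553 and circ0004592), SP100 (47.5 and 47.0) and DAXX (45.6 and 43.2) lay close together, and the order of SP110 and SP100 was not the same in the 2 libraries. SP140L followed at 26.0 and 24.1 RPKM and PML at 5.10 and 4.97 RPKM. In the PC3 controls DAXX led at 40.9 ± 0.21 RPKM (SD, n = 2), then SP140L at 8.52 ± 0.03, SP100 at 7.60 ± 0.06, SP110 at 2.30 ± 0.03 and PML at 1.01 ± 0.01. Each step of that order was larger than the spread of the controls. In the DU145 controls the order was DAXX at 61.7 ± 1.1 RPKM, SP140L at 9.19 ± 0.51, SP100 at 5.92 ± 0.14, PML at 1.87 ± 0.05 and SP110 at 1.67 ± 0.003 (SD, n = 2). With circ0003553 in DU145, SP110 stood above PML (2.00 against 1.82 RPKM), and with circ0004592 below it (1.87 against 1.95 RPKM), so these neighbours have no fixed order in that line.

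Summed over the 5 genes, the level was 173 and 165 RPKM with circ0003553 and circ0004592 in PC3, against 60.2 and 60.5 RPKM in the PC3 controls. DAXX made up 26.4% and 26.3% of that sum with a circRNA, against 67.8% in each PC3 control, and SP110 made up 28.2% and 27.5%, against 3.78% and 3.84%. In DU145 the sum was 75.3 and 83.4 RPKM with a circRNA, against 80.7 and 80.0 RPKM, and the DAXX share was 74.1% and 78.8%, against 77.4% and 76.1%. Relative to the scaffold, SP110 stood at 9.57 and 9.12 RPKM per RPKM of PML in PC3 with a circRNA, against 2.23 and 2.31 in the controls. SP140L per PML was lower with a circRNA in PC3 (5.10 and 4.86, against 8.36 and 8.45). SP100 per PML was 9.32 and 9.47, against 7.40 and 7.60.

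**Figure D4:**
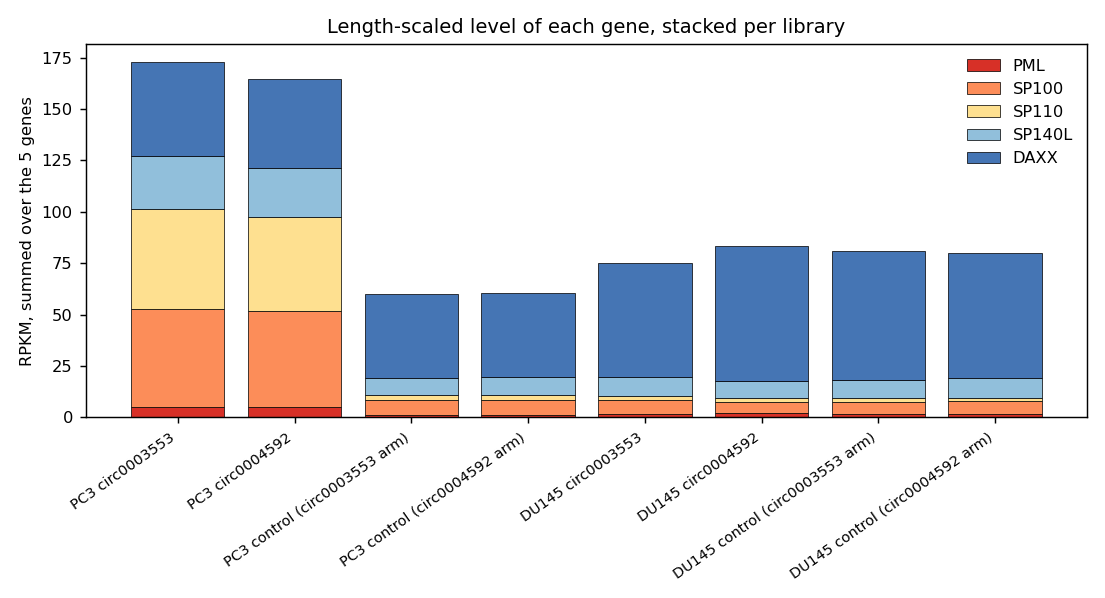
RPKM of the 5 genes stacked per library, so that bar height is the summed level. The PC3 circRNA bars reach 173 and 165 RPKM, against 60.2 and 60.5 RPKM in the PC3 controls, with SP110 and SP100 filling most of the added height, and the 4 DU145 bars lie between 75.3 and 83.4 RPKM with DAXX as their largest piece.

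Genes that act on or with the bodies moved less in PC3 than PML, SP100, SP110 and SP140L, apart from ISG20 and the interferon transcription factors. In either direction, 28.8% of all tested genes were called in PC3 with circ0003553 and 25.7% with circ0004592, and in DU145 10.9% and 10.4%, against which the list counts are to be read. Of 16 genes of the SUMO machinery, which attaches and removes SUMO, 0 rose, 3 fell and 13 did not pass with circ0003553 in PC3, and 0 rose, 2 fell and 14 did not pass with circ0004592. The modifier SUMO3 fell by 0.24 on the log2 scale with each circRNA. The SUMO protease SENP6 fell by 0.26 with circ0003553. Medians were -0.08 and -0.01, beside -0.03 for all genes. In DU145, 1 rose and 1 fell with circ0003553 (the protease SENP1 at 0.57 and SUMO3 at -0.47) and 0 rose and 1 fell with circ0004592.

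Of 10 chromatin partners, 4 rose and 2 fell with circ0003553 in PC3, and 3 rose and 2 fell with circ0004592. HIRA, a histone chaperone that gathers at the bodies, had 59.7 and 59.9 CPM in PC3 with circ0003553 and circ0004592, against 39.7 and 37.2 CPM in the controls, and rose by 0.63 and 0.64 on the log2 scale (edgeR adjusted p = 3.43e-07 and 3.32e-07). MORC3, an ATPase of the bodies, rose by 0.36 and 0.31, while CBX5, a heterochromatin protein, fell by 0.37 and 0.45 and the histone variant gene H3F3A fell by 0.39 and 0.30. H3F3A and SUMO genes have processed pseudogenes that can share reads. The medians were 0.13 and 0.12. ATRX, the partner of DAXX, rose with circ0003553 (0.16, adjusted p = 0.0406) and had 0.04 with circ0004592 (0.701) by edgeR, and was named because of DAXX. In DU145, 0 of the 10 passed with circ0003553, and with circ0004592 the variant gene H3F3B rose by 0.19 and ATRX fell by 0.22.

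Among 14 genes of PML turnover and regulation, 1 rose and 3 fell with circ0003553 in PC3, and 0 rose and 3 fell with circ0004592. HIPK2, a kinase that PML recruits, had 294 and 258 CPM in PC3 with a circRNA, against 380 and 379 CPM in the controls, and fell by 0.37 and 0.56 on the log2 scale. The ubiquitin ligase scaffold CUL3 fell by 0.21 and 0.27 and the deubiquitinase USP7 by 0.17 and 0.24. Medians were -0.04 and 0.01. In DU145, 0 of the 14 rose and 3 fell with circ0003553 (10.9% of all tested genes were called), among them the SUMO-targeted ligase RNF4 at -0.28 and the kinase subunit CSNK2B at -0.26. With circ0004592 in DU145, 2 rose and 0 fell, among them HIPK2 at 0.44.

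Of 16 client genes of the bodies, 15 were listed and tested. With circ0003553 in PC3, 8 rose and 0 fell, and with circ0004592, 6 rose and 2 fell, with medians of 0.20 and 0.14. ISG20, an interferon-induced exonuclease, had 182 and 179 CPM in PC3 with circ0003553 and circ0004592, against 18.4 and 17.4 CPM in the controls, and rose by 3.34 and 3.32 on the log2 scale (edgeR adjusted p = 1.35e-21 and 1.59e-21). After SP140, given above, came NBN, a DNA double-strand break protein, at 0.89 and 0.80, and MDM2, a ubiquitin ligase, at 0.35 with circ0003553. BLM, a helicase stored in the bodies, fell by 0.51 with circ0004592. In DU145, where 10.9% and 10.4% of all tested genes were called in either direction with circ0003553 and circ0004592, 4 clients rose and 0 fell with circ0003553, BLM at 0.45, ISG20 at 0.43, the acetyltransferase EP300 at 0.41 and NBN at 0.20. With circ0004592, 2 rose and 1 fell, ISG20 at 0.77, EP300 at 0.25 and the nuclease MRE11A at -0.24.

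All 4 interferon transcription factors rose in PC3 with each circRNA, with medians of 2.61 and 2.63. STAT2, a signal transducer of type I interferon, had 218 and 220 CPM with circ0003553 and circ0004592, against 34.2 and 35.9 CPM in the controls (log2 2.63 and 2.65, edgeR adjusted p = 1.95e-20 and 1.76e-20). Its DNA-binding partner IRF9 (2.58 and 2.61) and the factor IRF1 (2.00 and 1.88) rose as well. In DU145, IRF9 rose with circ0003553 (0.41) and with circ0004592 (0.54), IRF1 fell with circ0003553 (-0.33), and STAT2 had 0.05 and -0.24 and did not pass. No part of these factors in the levels of the 5 genes was tested.

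**Figure D5:**
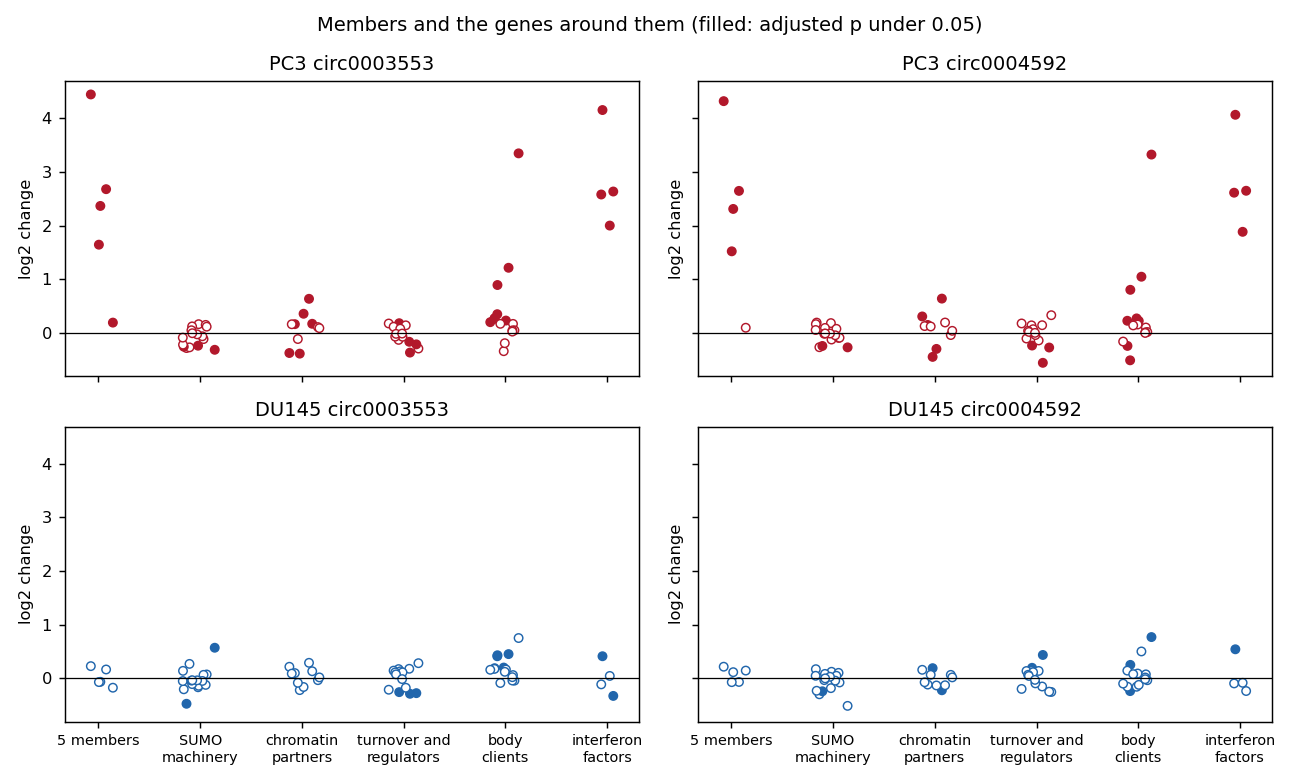
Log2 change of the 5 body genes and of 5 lists around them, 1 panel per comparison and 1 point per gene, filled where the edgeR adjusted p is under 0.05. In PC3 the members other than DAXX (0.19 and 0.10), ISG20 among the clients (3.34 and 3.32) and the interferon factors stand apart from the SUMO, chromatin and turnover genes, and in DU145 every point lies below 0.80.

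The genes whose profile over the 8 libraries was nearest to each member were found by the root mean square distance between centred log2(CPM + 1) values, among 12297 genes with a mean of at least 5 CPM. For PML they were PSMB8 (0.08), a subunit of the immunoproteasome, AC007899.3 (0.09) and XXbac-BPG248L24.12 (0.14). PSMB8 had 134 and 136 CPM with a circRNA in PC3, against 29.8 and 29.4 CPM in the PC3 controls, and 56.4 and 59.5 CPM in DU145 with a circRNA, against 56.3 and 56.8 CPM. For SP100 they were APOL6 (0.08), PMAIP1 (0.12) and TRIM5 (0.13). For SP110 the nearest was AC009950.1 (0.02), which shares its reads, and then TRANK1 (0.12) and HELZ2 (0.13). SP140L had ATRIP (0.09), C1RL (0.09) and HES4 (0.10) nearest to it, and DAXX had RRP7A, DNASE1 and RBM10, each at 0.03. The likeness of a pair is over 8 libraries that share controls and scaling, and it is a description.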

How the data were processed

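RNA of 8 libraries was measured after rRNA depletion with a stranded kit that adds a molecular identifier, per the labels' protocols. Trimmomatic 0.36, featureCounts of Subread 1.5.1, edgeR 3.12.1 and the build hg38 are named, with no order, per the submitters' processing notes. The aligner, the strandedness of counting and any use of identifiers are not given in the sources used here. The deposited tables hold raw counts per gene, and RPKM per gene made by the authors, 1 pair of tables per arm; genes in 1 table only (5511, at most 14 counts) were given 0 in the other. The RPKM printed are the deposited values, which were also read in alternatives.

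Genes with at least 1 CPM in at least 2 libraries were scaled by TMM and tested in edgeR 4.0.16 (R 4.3.3, quasi-likelihood) over 6 groups of line and treatment, with 2 residual degrees of freedom, or with 4 blocks of line and arm over both lines. The edgeR fit draws each gene's spread toward that of all genes, so a p-value does not rest on those 2 degrees of freedom alone. The SE was worked back from the F statistic. Alternatives used DESeq2 1.42.0 and limma 3.58.1 on log2(RPKM + 0.1). Even numbers made up 64.9% to 66.1% of counts from 1 to 20 per library, so the read pair was the unit of intervals and floors. The code was tested on simulated data. Named genes were the members, up to 4 called genes per list by absolute log2 change, overlapping genes, 3 neighbours on each side of the SP cluster, 3 nearest profiles and RCAN3 and STK3. Some genes of these lists are not reported here. The members and lists were chosen with earlier results of these data known.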

Additional observations from a re-analysis of the deposited data

Results flagged for a closer look

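The change of body genes with a circRNA differed between the lines, PC3 minus DU145, by edgeR's test of the difference. With circ0003553 the log2 difference was 2.43 for PML, 2.51 for SP100, 4.21 for SP110, 1.71 for SP140L and 0.37 for DAXX. With circ0004592 it was 2.19 for PML, 2.71 for SP100, 4.10 for SP110 and 1.59 for SP140L. Each value rests on 1 circRNA library per line, and the cause was not tested. Groups of 1 and 2 libraries are too small to look for a library far from the others of its group.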

How the results depend on the processing

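The calls of PML, SP100, SP110 and SP140L in PC3, and of their differences between the lines, held under every alternative that gives a test, as did their direction. The size of their adjusted p did not hold and differed by many orders of magnitude between alternatives. Of 1045 values under alternatives, 944 kept direction and side of the threshold or stayed near the reported value. With circ0003553 in DU145 the count of members called was 1 with DESeq2 size factors, and 0 to 2 with libraries left out in turn (DAXX and SP100). For circ0003553 minus circ0004592 in DU145 it was 1 with DESeq2, 1 with no filter and 0 with limma on RPKM, in place of 2. In that comparison limma called 0 of all tested genes.

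Directions that turned were all of values that had not passed. With both circRNAs of a line as 1 group, PML had 0.025 with circ0003553 and SP100 0.056 and DAXX -0.0062 with circ0004592 in DU145, and DAXX differed between the lines by 0.15 with circ0004592. For circ0003553 minus circ0004592 in DU145, SP110 had -0.0046 with DESeq2 size factors and with DESeq2, and SP140L -0.014 with both and -0.0061 with no filter. Over both lines with circ0003553, DAXX had 0.00021 with DESeq2 size factors and 0.015 without the block. With libraries left out in turn, the values over both lines ran from -0.088 to 2.35 for PML, -0.012 to 1.64 for SP140L and -0.19 to 0.19 for DAXX with circ0003553, and from -0.098 to 2.66 for SP100 and -0.14 to 1.55 for SP140L with circ0004592. In the fit over both lines, leaving out 1 library of a pair leaves the effect of its circRNA to the pair of the other line. These ranges therefore run between about the change in DU145 and about the change in PC3. What turned the other directions was not tested.

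Counts over all genes depended more on the tool. In PC3, edgeR called 5152 and 4597 genes with circ0003553 and circ0004592, DESeq2 2565 and 2266, and limma 3305 and 2641. In DU145, edgeR called 1947 and 1866, DESeq2 820 and 835, limma 0 and 0, and the fit with both circRNAs as 1 group 180. Without the DU145 control of the circ0003553 arm edgeR called 782 and 1007 there, and without that of the circ0004592 arm 818 and 533. Differences between the lines were 4047 and 3621 by edgeR, 2016 and 1807 by DESeq2, 1961 and 1619 by limma and 2165 with 1 group. For circ0003553 minus circ0004592, edgeR called 20 genes in PC3 (42 by DESeq2, 60 with no filter, 11 at 5 CPM, 0 by limma and 10 to 95 with libraries left out) and 2488 in DU145 (1219 by DESeq2, 0 by limma). Over both lines the 0 genes of each circRNA became 38 and 36 with no filter and 25 and 32 without the block.

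The titles tie each circRNA library to the control of its line and arm, and the fit over both lines was blocked by these 4 pairs. It called 0 of 5 members for each circRNA with and without the block, where its spread holds the difference between the lines. Within a line, no paired test of a single circRNA was possible because it has 1 pair. With 1 library per circRNA and line, its own spread is unknown, and counting error alone limits a ratio such as that of SP110 in DU145 with circ0004592 to between 0.956 and 1.40.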
